A study of Rattus norvegicus with 18 samples.

Results

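Expression of 10 genes of the endoplasmic reticulum (ER) chaperone system was followed in medullary thyroid carcinomas of MENX rats: Hspa5, Hsp90b1, Hyou1, Dnajb9, Sdf2l1, Pdia4, Pdia6, Calr, Creld2 and Manf. The genes were chosen by name, with earlier results of these data known. Each was found under its platform symbol with 1 probe set, and all 10 passed the filter on low values. They are 10 of the 14506 genes named by the array and of the 11370 tested. Medullary thyroid carcinoma is a tumour of the calcitonin-producing C cells. The MENX mutation lies in Cdkn1b, which encodes the cell cycle inhibitor p27Kip1. The rats, on a Sprague–Dawley white eye/Wistar–Kyoto background, develop neuroendocrine tumours. The arrays fell into 3 groups of 6: homozygous mutants aged 9 months, heterozygous mutants aged 18 months and heterozygous mutants aged 9 months. All the animals were mutant and untreated, each array had an animal code of its own, and no wild-type or normal thyroid tissue was among the samples. The 18 arrays hold bulk tissue, so fewer cells of a type and less RNA per cell cannot be told apart.

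Proteins bound for secretion are folded in the ER, where Hsp70 and Hsp90 class chaperones, their co-chaperones, disulfide isomerases and lectin chaperones hold, oxidise and refold them. When unfolded proteins build up, the membrane sensors ATF6, IRE1 and PERK start the unfolded protein response, and ATF6 and XBP1, the factor made active by IRE1, raise transcription of the chaperone genes through short promoter elements. C cells depend on this system because calcitonin is made as a prohormone that passes through the ER into secretory granules.

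The best-known of these elements, the ER stress response element (ERSE), is CCAAT followed by 9 bases of any kind and CCACG, and in a shorter relative, ERSE-II, 1 base of any kind lies between ATTGG and CCACG. They are shown here because they are the textbook elements of chaperone promoters, and whether they bear on the RNA levels described below was not tested. Promoter sequences from 250 bases before to 50 bases after the start were found in RefSeq (GRCr8) for 8 of the 10 genes, all but Manf and Pdia6. On either strand, an exact ERSE was present in 22 of the 33469 promoters (0.0657%) and in those of 4 of the 8 genes, and an exact ERSE-II was present in 17 promoters (0.0508%), among the 8 genes in Hyou1. The sites are printed on the gene's strand with 6 bases on each side, and capitals mark the fixed letters of the motif (CCAAT and CCACG, or their reverse complements ATTGG and CGTGG).
Hspa5, chr3:38452967-38452997, plus strand: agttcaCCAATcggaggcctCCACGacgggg
Hsp90b1, upstream site, chr7:23012445-23012475, minus strand: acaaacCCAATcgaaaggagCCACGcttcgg
Hsp90b1, downstream site, chr7:23012341-23012371, minus strand: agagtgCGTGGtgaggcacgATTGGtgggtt
Creld2, chr7:121789233-121789263, plus strand: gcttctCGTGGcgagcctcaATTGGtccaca
Calr, chr19:40213129-40213159, plus strand: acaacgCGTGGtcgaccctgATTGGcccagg
Hyou1, upstream site, chr8:53602688-53602710, plus strand: ccgtgaCGTGGgCCAATccgcag
Hyou1, downstream site, chr8:53602788-53602810, plus strand: cttctaCGTGGcCCAATggggac
The first base of the motif lay 43 bases before the start in Hspa5, 176 and 72 bases before it in Hsp90b1, 145 in Creld2, 232 in Calr, and 188 and 88 bases before the upstream one of the 2 annotated starts of Hyou1. The upstream Hyou1 site overlaps the core of the unfolded protein response element, TGACGTGG, found in 199 promoters (0.595%) and in no other of the 8 genes. Hspa5 is shown with the whole 250 bases before its start, with the fixed letters of the ERSE in capitals.
Hspa5 promoter, chr3:38452766-38453015, plus strand: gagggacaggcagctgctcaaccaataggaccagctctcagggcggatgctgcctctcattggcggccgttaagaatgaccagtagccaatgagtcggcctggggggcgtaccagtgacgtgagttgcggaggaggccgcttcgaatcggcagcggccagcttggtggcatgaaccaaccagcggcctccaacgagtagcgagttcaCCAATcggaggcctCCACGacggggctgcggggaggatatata
Sdf2l1, Pdia4 and Dnajb9 had no exact match to these 3 motifs in the window. With 1 mismatch allowed, Pdia4 had an ERSE, as did 1.41% of all promoters. Sdf2l1 had an ERSE-II with 1 mismatch, as did 0.995% of all promoters, and Dnajb9 had neither. The 250 bases before the start of Dnajb9 hold 1 CCACG and 1 CCAAT, in capitals, which lie in another order and spacing than in an ERSE.
Dnajb9 promoter, chr6:67002052-67002301, minus strand: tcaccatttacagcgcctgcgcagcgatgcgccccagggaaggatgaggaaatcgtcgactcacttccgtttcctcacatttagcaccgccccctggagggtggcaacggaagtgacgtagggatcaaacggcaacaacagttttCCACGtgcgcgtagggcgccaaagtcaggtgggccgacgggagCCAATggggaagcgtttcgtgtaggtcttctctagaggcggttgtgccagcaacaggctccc
These letters alone are common, since CCACG was found in 31.6% and CCAAT in 37.5% of all promoters on either strand. A match is a description of the sequence and not a measured binding site.

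RNA levels are given as the deposited log2 values, on which a difference of 1 is a doubling. Markers of C cells and of other tissue were looked at. With no normal thyroid among the samples, they cannot tell tumour C cells from normal ones. Calca, which encodes calcitonin, lay between 13.76 and 14.02 in homozygous tumours, between 14.01 and 14.12 in heterozygous tumours of 18 months and between 13.75 and 13.92 in those of 9 months, close to the brightest probe set of each array (14.43 to 14.49). The specimens also held other tissue. Tg, the thyroglobulin of follicular cells, lay between 14.18 and 14.34 in homozygous tumours, between 11.08 and 14.34 in heterozygous tumours of 18 months and between 14.30 and 14.37 in those of 9 months. Acta1, the actin of skeletal muscle, ranged from 8.20 to 13.33 over the 18 tumours. Hspa5 averaged only 0.94 below the brightest probe set, Hsp90b1 1.25 and Calr 1.37, while the other 7 lay at least 2.75 below it.

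Among the 3 groups, homozygous tumours had the lowest mean for 10 of the 10 genes. Heterozygous tumours of 18 months had the highest mean for 6 of them (Hspa5, Hyou1, Dnajb9, Pdia4, Pdia6 and Manf) and heterozygous tumours of 9 months for the other 4 (Hsp90b1, Sdf2l1, Calr and Creld2). Of all genes tested, 49.3% measured lower in homozygous tumours than in heterozygous tumours of 9 months, and 50% than in those of 18 months. The 10 genes varied together within groups, as described below, so they are not 10 independent readings. These orders are a description, and the comparisons below say which neighbours in them differed. The mean over the 10 genes was 11.26 ± 0.13 in homozygous tumours, 11.69 ± 0.11 in heterozygous tumours of 18 months and 11.59 ± 0.27 in heterozygous tumours of 9 months (SD, n = 6 each).

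**Figure D1:**
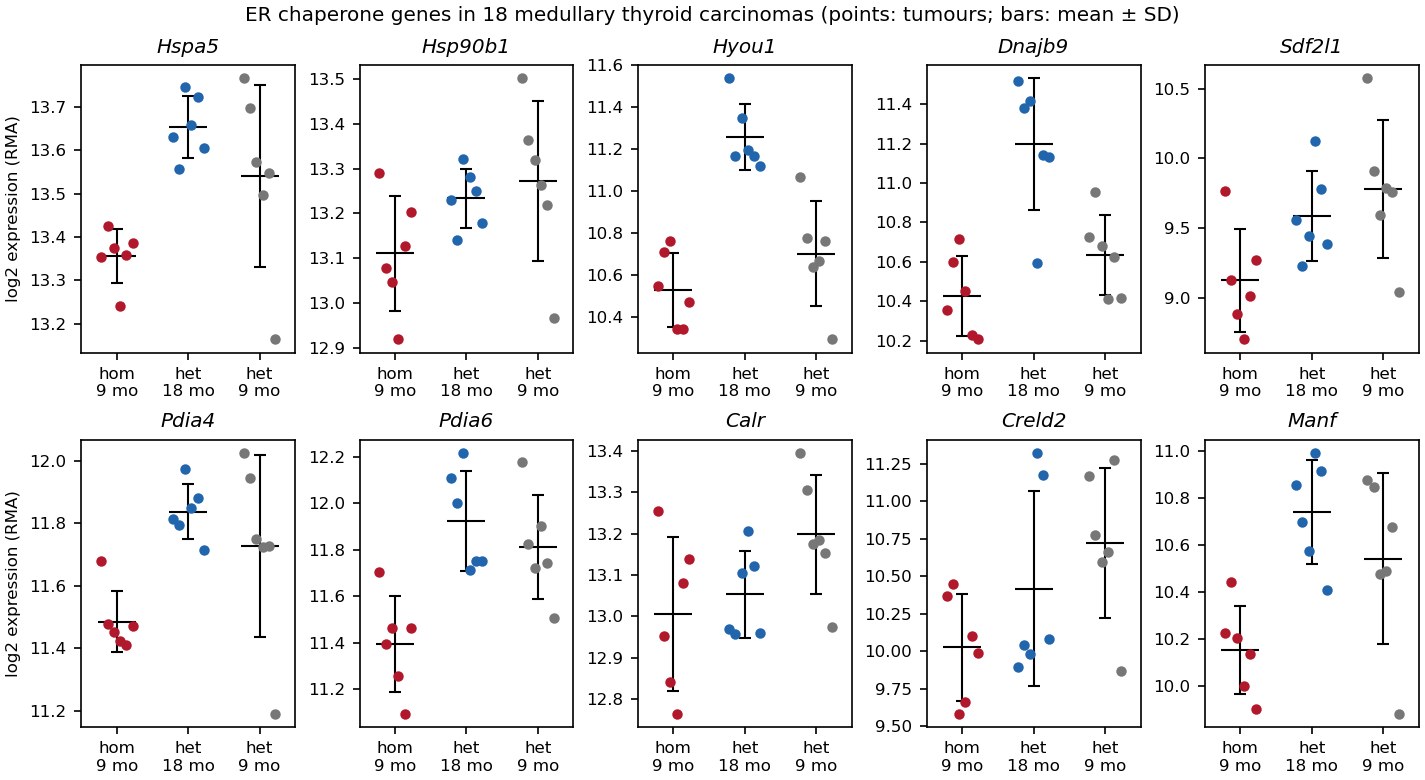
Log2 expression of the 10 ER chaperone genes, one panel per gene with its own axis, with a point for each of 6 tumours per group and bars for the mean ± SD. Homozygous tumours (left) have the lowest mean in all 10 panels, Hyou1 and Dnajb9 are highest in heterozygous tumours of 18 months (middle), and heterozygous replicate 6 of 9 months is the lowest grey point in 9 panels.

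The first comparison set homozygous against heterozygous tumours at the same age of 9 months. All 10 genes measured lower in homozygous tumours, by 0.16 to 0.70, and none passed limma's test over all genes (0 of 10 members and 0% of the 11370 genes tested, adjusted p of the members between 0.359 and 0.658). The median difference was -0.22, against 0.0022 over all genes tested, of which 49.3% measured lower. At an unadjusted p under 0.05, 7 of the 10 were lower, against 3.71% of all genes. None of the 10 separated the groups completely, against 0.915% of all genes with every homozygous tumour below every heterozygous one.

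Hspa5 encodes BiP, the Hsp70 of the ER and the hub of the system. It measured 13.24, 13.37 and 13.42 (lowest, median and highest) in homozygous tumours and 13.16, 13.56 and 13.77 in heterozygous tumours of 9 months. The groups overlapped, because heterozygous replicate 6 lay below all 6 homozygous tumours. The difference was -0.18 (95% interval -0.35 to -0.02, limma adjusted p = 0.535). Its partner Hsp90b1, the Hsp90 of the ER, differed by -0.16 (-0.33 to 0.0027), Hyou1, a large Hsp70-like protein that exchanges the nucleotide of BiP, by -0.17 (-0.41 to 0.06), and Dnajb9, a J-domain co-chaperone of BiP that also restrains IRE1, by -0.21 (-0.50 to 0.09). For these 3 genes the 95% interval of the difference held 0.

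Sdf2l1, a partner of a J-domain protein of the ER, and the disulfide isomerase Pdia6 had the smallest p among the 10. Sdf2l1 measured 8.70, 9.07 and 9.76 in homozygous tumours and 9.04, 9.78 and 10.57 in heterozygous tumours of 9 months, a difference of -0.65 (SE 0.22, limma adjusted p = 0.437). Pdia6 measured 11.10, 11.43 and 11.71 in homozygous tumours and 11.51, 11.78 and 12.18 in heterozygous tumours of 9 months. Only for Pdia6 did 5 of 6 homozygous tumours lie below every heterozygous tumour of that age, and the exception was homozygous replicate 1. The difference of Pdia6 was -0.42 (SE 0.12, limma adjusted p = 0.359). With a weight per array Pdia6 passed the threshold (-0.45, limma adjusted p = 0.0415), and the other 9 did not.

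Creld2, an ER protein with isomerase activity that is also secreted, showed the widest difference of the 10. It measured 9.58, 10.05 and 10.45 in homozygous tumours and 9.87, 10.71 and 11.28 in heterozygous tumours of 9 months. Its difference of -0.70 (SE 0.28, limma adjusted p = 0.508) corresponds to a 1.62-fold lower level, and all 6 homozygous values lay within the heterozygous range or below it. Manf, a secreted protein of the ER that binds BiP and protects neurons, differed by -0.39 (SE 0.15), Pdia4, a disulfide isomerase, by -0.24 (SE 0.10) and Calr, the lectin chaperone calreticulin, by -0.19 (SE 0.09). For these 3 genes limma gave adjusted p-values between 0.503 and 0.545.

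In the mean over the 10 genes the heterozygous tumours of 9 months were the most spread. Replicate 6 was the lowest of its group for 9 of the 10 genes and replicate 1 the highest for 8. The mean over the 10 genes was 11.13 in replicate 6, 11.93 in replicate 1 and between 11.55 and 11.74 in the other 4. The SD was widest in this group for 7 of the 10 genes, in the 18-month group for Dnajb9 and Creld2 and in homozygous tumours for Calr. Without replicate 6 the differences ran from -0.22 (Hsp90b1) to -0.87 (Creld2), and 0 of 10 passed (smallest limma adjusted p = 0.13, for Pdia4).

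Plasma cells are rich in ER chaperones. The mean of their marker list overlapped between the groups. It lay between 7.16 and 7.59 in homozygous tumours and between 7.36 and 7.78 in heterozygous tumours of 9 months, and 7 of its 8 tested genes measured lower in homozygous tumours, with 0 past the threshold (median -0.17). Jchain, the joining chain of secreted antibodies, differed by -0.17 (SE 0.49), the B cell receptor gene Cd79b by -0.04 (SE 0.09) and the plasma cell factor Irf4 by 0.03 (SE 0.06). Sdc1 differed by -0.24 (SE 0.16), Pou2af1 by -0.18 (SE 0.10), Fkbp11 by -0.18 (SE 0.15) and Blk by -0.14 (SE 0.06). Of the defining markers Tnfrsf17 stayed at or under 6.20 on every array, below the filter. The brightest gene of that list, Derl3, is itself a protein of ER-associated degradation, and it lay between 8.63 and 9.53 in homozygous tumours and between 9.19 and 10.29 in heterozygous ones of 9 months (-0.71, SE 0.26, limma adjusted p = 0.480). The C cell list was higher in homozygous tumours (11.36 to 12.44, against 10.88 to 11.48 in heterozygous tumours of 9 months, 10 of 11 genes higher and 0 past the threshold). The fibroblast list mean lay between 9.41 and 9.73 in homozygous tumours and between 9.78 and 9.97 in heterozygous tumours of 9 months (6 of 6 genes lower). Follicular genes (9 of 9), endothelial genes (7 of 7) and skeletal muscle genes (7 of 8) also measured lower in homozygous tumours, and none of these lists had a gene past the threshold. The part of these markers in the result was not tested.

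None of the other genes of the system passed limma's adjusted threshold in this comparison. Of 26 further folding genes 19 measured lower (median -0.12), led by the prolyl isomerase Fkbp2 (-0.36, SE 0.08, limma adjusted p = 0.243) and the J-domain co-chaperone Dnajc3 (-0.29, SE 0.10). Of 15 sensors and factors of the stress response 6 measured lower and 9 higher (median 0.01). Ppp1r15a, the stress-induced subunit of the eIF2α phosphatase, was 0.27 higher (SE 0.08) and the sensor Atf6 0.17 higher (SE 0.06), both above the adjusted threshold. Of 16 genes of ER-associated degradation 10 measured lower (median -0.04), with Os9, a lectin of that pathway, at -0.18 (SE 0.08) and Ufd1, a cofactor of the extraction ATPase, at 0.11 (SE 0.05). Of 22 cytosolic and mitochondrial chaperone genes 15 measured lower (median -0.04), with Hspe1, the mitochondrial Hsp10, at -0.16 (SE 0.07) and the chaperonin subunit Tcp1 at -0.14 (SE 0.08).

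**Figure D2:**
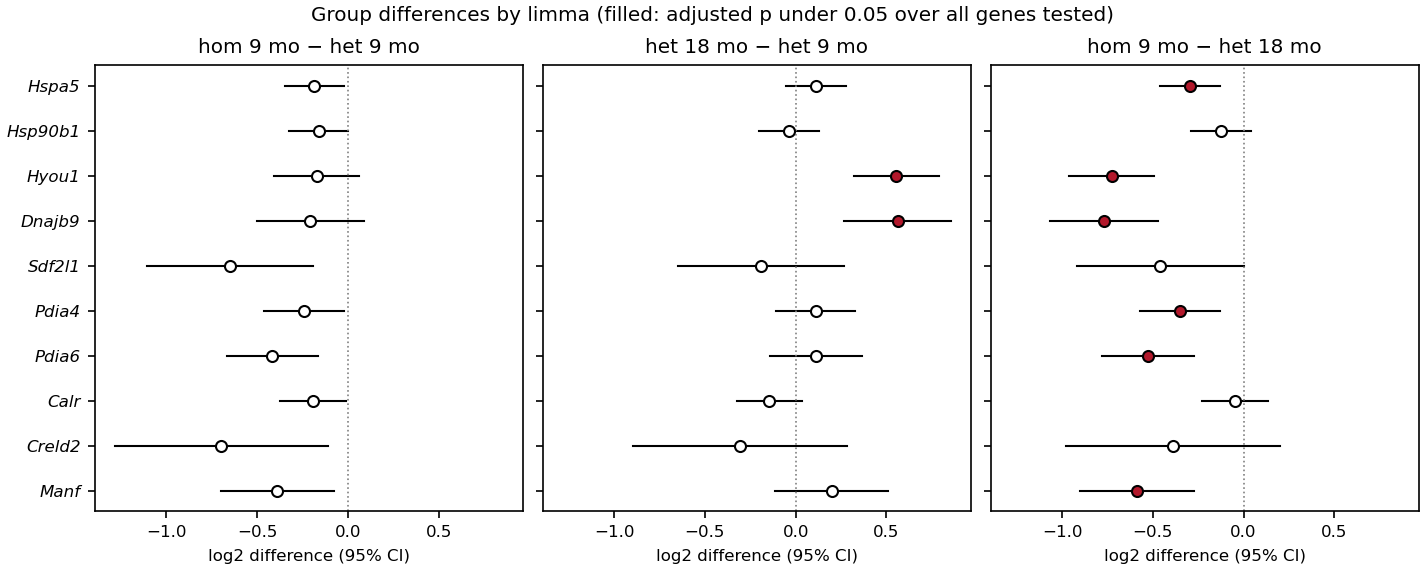
Log2 differences of the 10 genes with 95% intervals for the 3 comparisons, filled where the limma adjusted p over all genes tested was under 0.05. In the left panel all 10 points lie below 0 and none is filled, in the middle panel Hyou1 and Dnajb9 are filled above 0, and in the right panel 6 points are filled below 0.

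The second comparison set heterozygous tumours at 18 months against those at 9 months. Hyou1 and Dnajb9 rose and the other 8 genes did not pass. The 2 of 10 that rose compare with 21.6% of the 11370 genes tested, and the 0 of 10 that fell with 22.4%, so the count of rises was close to that over all genes. The median difference of the 10 genes was 0.11, against -0.0045 over all genes.

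Hyou1 measured 11.12, 11.18 and 11.54 at 18 months and 10.30, 10.72 and 11.07 at 9 months. All 6 older tumours lay above every younger one, which held for 9.07% of all genes. The rise was 0.55 (SE 0.11, limma adjusted p = 0.00127), or 1.47-fold. Dnajb9 measured 10.59, 11.26 and 11.52 at 18 months and 10.41, 10.65 and 10.95 at 9 months, with 5 of 6 older tumours above every younger one. The exception was replicate 4 of the 18-month group, at 10.59. Dnajb9 rose by 0.56 (SE 0.14, limma adjusted p = 0.00443), or 1.48-fold. Both genes kept their call when each array was left out in turn, with differences between 0.47 and 0.63 for Hyou1 and between 0.50 and 0.68 for Dnajb9.

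The other co-chaperones and chaperones differed by less. Hspa5 measured 13.56, 13.64 and 13.74 at 18 months and 13.16, 13.56 and 13.77 at 9 months, and the older range lay inside the younger one. Its difference of 0.11 had an interval of -0.05 to 0.28 (limma adjusted p = 0.259). Hsp90b1 differed by -0.04 (-0.20 to 0.13), and by 0.0071 without heterozygous replicate 1 of 9 months. Pdia4 differed by 0.11 (-0.11 to 0.33), Pdia6 by 0.11 (-0.14 to 0.36), Manf by 0.20 (-0.11 to 0.51), Calr by -0.14 (-0.33 to 0.04) and Sdf2l1 by -0.19 (-0.65 to 0.27). Without heterozygous replicate 6 of 9 months the differences were 0.04 for Hspa5, 0.0025 for Pdia4, 0.07 for Manf, 0.05 for Pdia6 and -0.34 for Sdf2l1. Without replicate 1 of the same group they were 0.18 for Pdia6, 0.17 for Pdia4 and -0.03 for Sdf2l1.

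Creld2 was divided within the 18-month group. Replicates 4 and 5 measured 11.32 and 11.17, and the other 4 lay between 9.90 and 10.08, while the tumours of 9 months measured 9.87, 10.71 and 11.28 (lowest, median and highest). The difference was -0.31 (SE 0.28, limma adjusted p = 0.399). It was -0.49 without replicate 4 of the 18-month group and -0.20 without replicate 5 of the 9-month group. With replicates 4 and 5 of the 18-month group left out it was -0.72 and passed (limma adjusted p = 0.014). That value supports no call, because the pair left out held the 2 highest Creld2 values of its group. Hyou1 and Dnajb9 still rose without that pair. The same pair of tumours held most of the normal thyroid signal of its group, with means of the follicular list at 10.91 and 10.63, while the other 4 tumours lay between 7.32 and 9.40. Sdf2l1 was also highest in replicates 4 and 5 of that group (10.12 and 9.78), against 9.23 to 9.56 in the others, and Calr likewise (13.21 and 13.12, against 12.96 to 13.10). Dnajb9, by contrast, was lowest in replicate 4, and Pdia6 (11.71 and 11.75) lay within or below the 11.75 to 12.22 of the other 4.

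Marker lists of several tissues moved with age, where 21.6% of all genes tested rose and 22.4% fell. The follicular list mean lay between 7.32 and 10.91 at 18 months and between 11.03 and 11.12 at 9 months (8 of 9 tested genes fell), and its member Slc26a4 was below the filter, at or under 7.04. The endothelial list mean lay between 7.76 and 9.63 at 18 months and between 9.74 and 9.98 at 9 months (7 of 7 fell). The C cell list mean lay between 11.66 and 12.56 at 18 months and between 10.88 and 11.48 at 9 months (8 of 11 rose). Of 6 fibroblast genes 3 fell, and of 7 macrophage genes 3 rose and 1 fell. The parathyroid list of 3 genes had the widest median difference of the marker lists (-2.58): Gcm2, its developmental factor, fell by 2.58, the calcium receptor gene Casr rose by 0.56, and Pth, the parathyroid hormone, differed by -2.97 (SE 1.38, limma adjusted p = 0.0901). All 8 skeletal muscle genes measured lower at 18 months (median -1.76), and among them the myosin gene Myh4 fell by 2.73. Of the 8 plasma and B cell genes 1 fell (Pou2af1). Their part in the rises of Hyou1 and Dnajb9 was not tested.

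Around the 10 genes, genes on other lists of the ER system rose or fell with age. Of all genes tested 21.6% rose and 22.4% fell. Of 26 further folding genes 9 rose, 5 fell and 12 did not pass. Uggt1, the glucosyltransferase that senses unfolded glycoproteins, rose by 0.84 (SE 0.14), the isomerase-like protein Erp29 by 0.82 (SE 0.17), the disulfide isomerase Pdia5 by 0.60 (SE 0.13) and the prolyl isomerase Fkbp7 by 0.46 (SE 0.07). Of 15 sensors and factors 6 rose and 2 fell. Creb3l1, a membrane-bound transcription factor of the ER, rose by 0.82 (SE 0.13), Atf6b by 0.59 (SE 0.08), Ppp1r15a by 0.48 (SE 0.08) and Atf6 by 0.32 (SE 0.06). Of 16 degradation genes 6 rose and 0 fell. Sel1l, the adaptor of the membrane ubiquitin ligase, rose by 0.42 (SE 0.08), Nploc4, a cofactor of the extraction ATPase, by 0.47 (SE 0.10), the mannosidase-like protein Edem2 by 0.27 (SE 0.08) and the ubiquitin-conjugating enzyme Ube2g2 by 0.21 (SE 0.06). These 12 genes had limma adjusted p-values between 0.000212 and 0.0114.

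Of 22 chaperone genes of the cytosol and mitochondria 6 rose and 4 fell at 18 months, against 21.6% and 22.4% of all genes tested. Hspa4l, an Hsp110 protein, rose by 1.15 (SE 0.23), the co-chaperone Bag3 by 0.52 (SE 0.12) and Stip1, which links Hsp70 to Hsp90, by 0.45 (SE 0.10), while the small heat shock protein gene Hspb1 fell by 1.38 (SE 0.31). These 4 genes had limma adjusted p-values between 0.00123 and 0.0028.

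**Figure D3:**
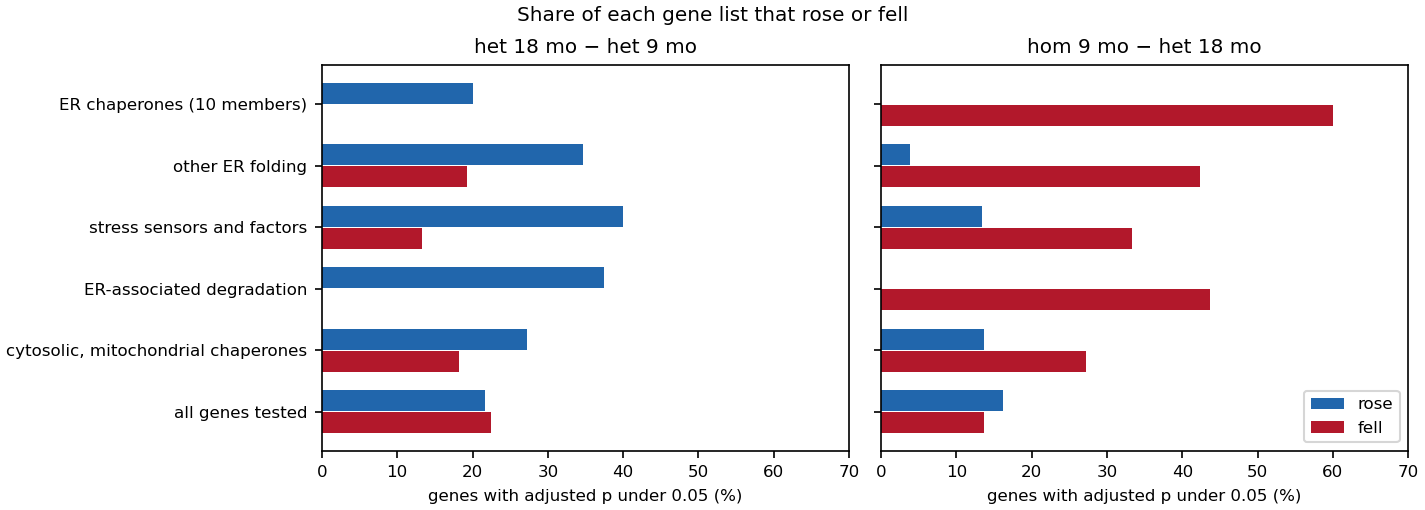
Percentage of each gene list with a limma adjusted p under 0.05, in blue for genes that rose and in red for genes that fell, in heterozygous tumours of 18 against 9 months (left) and in homozygous tumours of 9 against heterozygous tumours of 18 months (right). Of the 10 ER chaperones 2 rose on the left and 6 fell on the right, and the bottom bars show all 11370 genes tested (21.6% and 22.4% on the left, 16.2% and 13.6% on the right).

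The third pair, homozygous tumours of 9 months against heterozygous tumours of 18 months, differs in genotype and age together, which cannot be told apart. It shares its arrays with the other comparisons. All 10 genes measured lower in homozygous tumours (50% of all genes did), 6 of them fell and 4 did not pass, against 13.6% of the 11370 genes tested that fell and 16.2% that rose. The median difference was -0.42, against 0 over all genes. For 4 genes (Hspa5, Hyou1, Pdia4 and Pdia6) every homozygous tumour lay below every heterozygous tumour of 18 months, against 0.994% of all genes.

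Dnajb9 and Hyou1 again had the widest differences. Dnajb9 measured 10.21, 10.40 and 10.72 in homozygous tumours and 10.59, 11.26 and 11.52 in heterozygous tumours of 18 months, a fall of 0.77 (SE 0.14, limma adjusted p = 0.00462). Hyou1 measured 10.34, 10.51 and 10.76 in homozygous tumours and 11.12, 11.18 and 11.54 in heterozygous tumours of 18 months, a gap with no overlap and a 1.66-fold lower level (-0.73, SE 0.11, limma adjusted p = 0.0036). Manf fell by 0.59 (SE 0.15), Pdia6 by 0.53 (SE 0.12), Pdia4 by 0.35 (SE 0.10) and Hspa5 by 0.30 (SE 0.08), with limma adjusted p-values between 0.00864 and 0.0201.

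For Hspa5 the groups were close but separate, with 13.24 to 13.42 in homozygous tumours and 13.56 to 13.74 in heterozygous tumours of 18 months. Manf ranged from 9.90 to 10.44 in homozygous tumours and from 10.41 to 10.99 in heterozygous tumours of 18 months, with 5 of 6 homozygous values below every other. The 4 genes that did not pass were Sdf2l1 (-0.46, interval -0.92 to 0.00055), Creld2 (-0.39, -0.98 to 0.20), Hsp90b1 (-0.12, -0.29 to 0.04) and Calr (-0.05, -0.23 to 0.13). With replicates 4 and 5 of the 18-month group left out, which held the highest values of both genes in that group, the differences were 0.03 for Creld2 and 0.0079 for Calr. With a variance per group Hyou1, Dnajb9 and Pdia6 still fell, and Hspa5, Pdia4 and Manf did not pass (limma adjusted p of 0.0789, 0.123 and 0.0544).

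Marker lists moved with this pair too: 6 of 9 follicular and 5 of 7 endothelial genes rose and 6 of 11 C cell genes fell, and their part was not tested. On each other list of the system more genes fell than rose, while of all genes tested 13.6% fell and 16.2% rose. Of 26 further folding genes 11 fell and 1 rose, with Erp29 at -0.90 (SE 0.17), Uggt1 at -0.72 (SE 0.14), Pdia5 at -0.63 (SE 0.13) and Fkbp7 at -0.33 (SE 0.07). Of 16 degradation genes 7 fell and 0 rose, among them Sel1l (-0.47, SE 0.08), the lectin gene Erlec1 (-0.42, SE 0.11), Nploc4 (-0.36, SE 0.10) and Vcp, the extraction ATPase (-0.29, SE 0.05). Of 15 sensors and factors 5 fell and 2 rose. Creb3l1 fell by 0.76 (SE 0.13) and Atf6b by 0.42 (SE 0.08), while Mbtps1, the protease that activates ATF6, rose by 0.24 (SE 0.06) and Ppp1r15b, the constitutive phosphatase subunit, by 0.26 (SE 0.07). Of the 22 cytosolic and mitochondrial chaperone genes 6 fell and 3 rose, with Hspa4l at -0.95 (SE 0.23), Hsph1, another Hsp110 protein, at -0.53 (SE 0.14), Stip1 at -0.38 (SE 0.10) and Hspa4 at -0.25 (SE 0.07). These 16 genes had limma adjusted p-values between 0.00405 and 0.014.

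Within groups the 10 genes varied together from tumour to tumour. After each group's mean was subtracted, the 45 pairs of genes had a median Pearson correlation of 0.61 over the 18 arrays, and 41 were positive, against a median of 0.011 over all gene pairs tested. The arrays share their normalization, and no p is given. The pairs were closest in heterozygous tumours of 9 months (median 0.90, all 45 positive, 6 arrays), where replicates 1 and 6 lay at opposite ends, and looser in homozygous tumours (0.44, 38 positive) and in heterozygous tumours of 18 months (0.30, 32 positive). Because of this covariation the 10 genes are not 10 independent readings of a group difference. The closest pairs over the 18 arrays were Hspa5 with Pdia4 (0.91), Hsp90b1 with Calr (0.91) and Sdf2l1 with Calr (0.89). Hspa5 with Pdia4 was at 0.16 in homozygous tumours, 0.84 in heterozygous tumours of 18 months and 0.99 in those of 9 months. Hsp90b1 with Calr and Sdf2l1 with Calr lay between 0.78 and 0.97 in each group.

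Of the 10 genes Dnajb9 followed the common pattern least. Its correlation with the mean of the 10 genes was 0.19 over the 18 arrays, against 0.61 to 0.92 for the other 9 genes. That mean includes the gene compared with it. Dnajb9 was negative with Creld2 (-0.38), Calr (-0.26) and Sdf2l1 (-0.20). Its other correlations were positive, highest with Hyou1 (0.57) and Pdia6 (0.49). At 18 months the 3 negative correlations were -0.83, -0.70 and -0.80 over 6 arrays. In heterozygous tumours of 9 months they were 0.48, 0.71 and 0.52. At 18 months Dnajb9 correlated with Pdia6 at 0.80 and with Hyou1 at 0.55, and Hyou1 with Pdia6 at 0.73. In heterozygous tumours of 9 months the same 3 pairs were at 0.36, 0.59 and 0.92. Pdia6 and Hyou1 followed the common pattern in heterozygous tumours of 9 months (correlations with the mean of 0.89 and 0.99). They followed it less in homozygous tumours (0.75 and 0.54) and least at 18 months (-0.07 and 0.27).

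**Figure D4:**
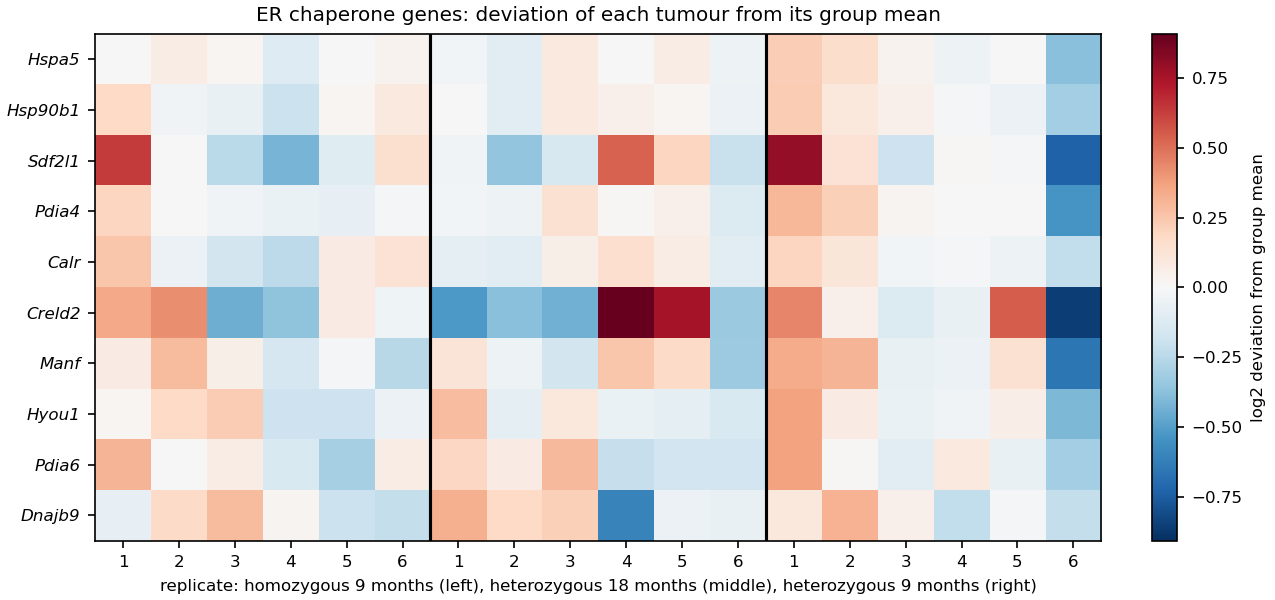
Log2 deviation of each tumour (columns, replicates 1 to 6 of each group) from the mean of its group for the 10 genes (rows), red for higher and blue for lower. Heterozygous replicate 6 of 9 months is blue for all 10 genes, and in replicate 4 of the 18-month group Creld2 and Sdf2l1 are red while Dnajb9 is blue.

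Outside the 10, the genes whose within-group pattern was most like their mean over the 18 arrays were Dnajc3 (Pearson correlation 0.96), Slc7a15 (0.78), Mtmr4 (0.78), Rpn1 (0.74) and Ptpn7 (0.74). Next came P4hb (0.73), the vomeronasal receptor gene Vom2r16 (0.73), Syvn1 (0.72) and the homeobox gene Alx4 (0.71). The likeness was thus not limited to genes on the ER lists, and what these genes share was not tested. Dnajc3 was close in each group (0.97 in homozygous tumours, 0.89 in heterozygous tumours of 18 months and 0.99 in those of 9 months), whereas Ptpn7 was at 0.24 in the 18-month group. Dnajc3 measured 10.39, 10.52 and 10.70 in homozygous tumours, 10.71, 10.85 and 11.06 in heterozygous tumours of 18 months and 10.38, 10.82 and 11.11 in those of 9 months. Homozygous tumours and heterozygous tumours of 18 months did not overlap for Dnajc3, and it fell by 0.34 between them (SE 0.10, limma adjusted p = 0.0175). Among the marker lists, the plasma and B cell list mean followed the 10 genes in heterozygous tumours of 9 months (0.89) and in homozygous tumours (0.77), and ran the opposite way at 18 months (-0.72). That list holds 2 genes of the ER itself, Derl3 and Fkbp11, so its mean is not a reading of plasma cells alone. Derl3 correlated with the mean of the 10 genes in each group. It was at 0.95 in heterozygous tumours of 9 months, 0.75 in homozygous tumours and 0.67 in heterozygous tumours of 18 months. Other marker list means also correlated with the mean of the 10 genes in single groups. In heterozygous tumours of 9 months the endothelial list was at 0.74, the skeletal muscle list at -0.75 and the parathyroid list at -0.66. At 18 months the C cell list was at -0.75 and the macrophage list at -0.70. Over the 18 arrays the plasma and B cell list was at 0.49, and the other lists lay between -0.32 and 0.15. The part of plasma cells or other tissue in these correlations was not tested.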

How the data were processed

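RNA of 18 tumours was measured on Affymetrix arrays, 1 per animal. The deposited log2 values come from the authors' processing. The submitters' processing notes name RMA and Expression Console (Affymetrix, version 1.3.0.187), with no order or role. The platform annotation gave 1 symbol for 15310 of 29214 probe sets (323 had several, 13581 none). The probe set with the highest mean stood for each gene, and a gene was tested if this mean was at or above 6.32, the 30th percentile over probe sets.

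Group means were fitted over the 18 arrays together in limma 3.58.1 (lmFit, then eBayes), under R 4.3.3 with statmod 1.5.0. Genes passed at a Benjamini-Hochberg adjusted p under 0.05 over the 11370 genes. Tests were two-sided, and SEs, intervals and adjusted p-values are limma's. The procedure was tested on simulated arrays. Motifs were searched on both strands.

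The 10 genes and all gene lists were chosen with earlier results of these data known. Named from each other list were up to 4 genes that passed with the smallest p, or 2 where none did. Also named were the 5 genes with the highest within-group correlation with the mean of the 10, and genes next in that order. Alternatives were other filters, a replicate block, 2-group fits, trend and robust settings, a variance per group, array weights, median centring, probe set means and leaving out arrays. Precision is limited by the number of arrays. Whether the animals were littermates was not given in the sources used here.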

Additional observations from a re-analysis of the deposited data

Results flagged for a closer look

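Of 33 sets of 6 tumours examined (10 genes and their mean in 3 groups), 2 held a tumour far from the others, both for Pdia4. Chance gives about 1 in 20. In homozygous tumours replicate 1 measured 11.68 for Pdia4, and the nearest of the others lay at 11.48 and the lowest at 11.41. In heterozygous tumours of 9 months replicate 6 measured 11.19, and the other 5 lay between 11.73 and 12.03. Without homozygous replicate 1 and without heterozygous replicate 6, each in turn, the call of Pdia4 was the same in the 3 comparisons.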

How the results depend on the processing

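Each of the 30 differences (10 genes in 3 comparisons) was recomputed under 28 alternatives, and 831 values kept their direction and their side of the threshold. Of the other 9, 4 reversed, 3 lost and 2 gained a call. The difference of Calr between homozygous tumours and heterozygous tumours of 18 months was 0.00057 without homozygous replicate 4 and 0.0079 without replicates 4 and 5 of the 18-month group, which also gave 0.026 for Creld2. Leaving out each array in turn, Calr ranged from -0.0976 to 0.00057 there, and Hsp90b1 in the age comparison from -0.10 to 0.0071, the highest without heterozygous replicate 1 of 9 months. For these reversals the cause was not tested. The count of members called was 3 in place of 6 in the third comparison with a variance per group, and 1 in place of 0 between the genotypes with array weights. In the age comparison it was 3 in place of 2 without replicates 4 and 5 of the 18-month group. Leaving out each array in turn it was 0, 2 and 6 every time. Between the genotypes the genes called over the whole array numbered 24 with only the 2 groups in the fit, 25 with a variance per group, 118 with array weights, 7 without replicates 4 and 5 of the 18-month group and 0 to 2 without each array in turn. In the age comparison they numbered 4290 to 5740 without each array in turn. In the third comparison they numbered 708 with only the 2 groups, 5392 without replicates 4 and 5, and 2116 to 4702 without each array in turn, the lowest without replicate 2 of the 18-month group. With the replicate number as a block 0, 4866 and 3433 genes and 0, 2 and 6 members were called. Deviations of same-numbered tumours correlated between -0.29 and 0.35, and 1, 3 and 0 of 6 tumours correlated best with their own number. Whether the numbers stand for a pairing of animals or arrays cannot be told from these values. Why the counts moved was not tested.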

Other observations

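The transcription factors best known for driving the chaperone genes and the stress response were looked at after their values were seen. Xbp1 measured 12.74 ± 0.09 in homozygous tumours, 12.85 ± 0.10 in heterozygous tumours of 18 months and 12.82 ± 0.15 in those of 9 months (SD, n = 6 each), and did not pass in any of the 3 comparisons. Atf4, the factor translated under PERK signalling, ranged from 9.86 to 10.10 in homozygous tumours, from 10.04 to 10.37 in heterozygous tumours of 18 months and from 9.88 to 10.34 in those of 9 months. Its target Ddit3 measured 8.87 ± 0.17 in homozygous tumours, 9.09 ± 0.31 in heterozygous tumours of 18 months and 9.21 ± 0.38 in those of 9 months. Neither passed in any comparison (limma adjusted p between 0.131 and 0.80 for Atf4 and between 0.304 and 0.585 for Ddit3). Atf6 passed in the age comparison alone (limma adjusted p = 0.000875), with 10.56 ± 0.08 in homozygous tumours, 10.72 ± 0.10 in heterozygous tumours of 18 months and 10.39 ± 0.11 in those of 9 months. These are RNA levels, and the activity of these factors, which depends on splicing, cleavage or translation, was not measured.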
